A study of Mus musculus with 2 samples.

Results

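The transcripts described here are those of 10 genes that serve as macrophage markers in mouse tissue. Adgre1, Cd68, Mrc1 and Fcgr1 are general markers, and Trem2, Tyrobp, Gpnmb, Spp1, Lgals3 and Cd9 are markers of lipid-associated macrophages. Their counts were found by gene symbol, and the set was drawn up with earlier results of these data known. All 10 were listed in both count tables, among 27179 genes, and all 10 were among the 15212 genes examined, which had a mean normalised count of at least 10 over both libraries. To address whether the state of macrophages in brown fat differs with the genotype, the general markers were compared with the lipid-associated ones.

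The tissue was iBAT, the brown fat pad between the shoulder blades that makes heat, taken from untreated C57BL/6N mice aged 20 days. One group was wild-type (WT) and the other carried a knockout of Ucp1, the gene of the mitochondrial protein through which brown fat releases energy as heat. Each genotype was represented by 1 library of poly-adenylated RNA from 3 pooled animals, so there are no replicates, no p-values and no measure of the spread between animals. Every difference below is one between 2 libraries, and its interval covers counting error only.

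The libraries held 52950913 counts for WT and 53216727 for Ucp1-KO. Ucp1 had 366473 and 37853 counts, so the Ucp1-KO library stood at 12.7% of the WT level after normalisation. The libraries also differed in other ways. The 8 skeletal muscle markers were all lower in Ucp1-KO by 2-fold or more, and their sum made up 0.445% of the WT counts against 0.0452% of the Ucp1-KO counts. Mitochondrially encoded genes took 22.4% of the WT and 36.7% of the Ucp1-KO counts. The mice are described as male, but 4 Y-linked genes had 0 counts in sum in the WT library and 5305 in the Ucp1-KO library. Genotype therefore cannot be told apart from these differences between the pools.

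Macrophages take up debris, dying cells and lipid, and in fat they lie between the adipocytes. Adgre1 encodes F4/80, the classical surface marker of mouse macrophages, and Cd68 encodes a glycoprotein of their lysosomes. Mrc1 encodes the mannose receptor CD206, typical of tissue-resident macrophages, and Fcgr1 the high-affinity receptor for immunoglobulin G. A lipid-associated state has been described in fat, in which macrophages gather lipid and express a lysosomal and lipid-handling programme. TREM2, a receptor for lipids and lipoproteins, is central to this state and signals through the adaptor TYROBP, also called DAP12. Gpnmb encodes a transmembrane glycoprotein of lysosomes and the cell surface. Spp1 encodes osteopontin, a secreted ligand of integrins and CD44. Lgals3 encodes galectin-3, which binds sugars on glycoproteins, and Cd9 encodes a tetraspanin of the plasma membrane and extracellular vesicles. Osteopontin, galectin-3 and CD9 are also made by other cells, and all macrophages use Tyrobp.

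The positions below are those of GRCm39 in the GENCODE mouse release M39, joined by symbol. Trem2 (Entrez gene 83433) lies on chromosome 17 from 48653429 to 48661175 on the plus strand, and Tyrobp (22177) on chromosome 7 from 30113170 to 30117010, plus strand. Gpnmb (93695) lies on chromosome 6 from 49013426 to 49047863, plus strand, Spp1 (20750) on chromosome 5 from 104582165 to 104589235, plus strand, Lgals3 (16854) on chromosome 14 from 47605208 to 47623624, plus strand, and Cd9 (12527) on chromosome 6 from 125437210 to 125471778, minus strand. Of the general markers, Adgre1 (13733) lies on chromosome 17 from 57665573 to 57790527, plus strand, Cd68 (12514) on chromosome 11 from 69555037 to 69557067, minus strand, Mrc1 (17533) on chromosome 2 from 14234151 to 14336926, plus strand, and Fcgr1 (14129) on chromosome 3 from 96190225 to 96201338, minus strand. The annotation places non-coding genes on the opposite strand over part of Cd68, Cd9, Gpnmb and Trem2, and further ones on the same strand over part of Cd9, Mrc1 and Spp1. The libraries were strand-specific per the labels, but the strand setting of the counting was not given in the sources used here, so these counts may hold reads of either strand.

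The promoters divided the markers in a way that the choice of genes did not use. In a window of 300 bases, from 250 before to 50 after the start of the canonical transcript, the core letters of the PU.1 motif (GAGGAA, searched on both strands) were found in 6 of 10 markers, against 27.5% of 21770 promoters of protein-coding genes. PU.1 is the transcription factor that directs macrophage development. The 6 were all 4 general markers plus Trem2 and Tyrobp, the receptor and its adaptor. Gpnmb, Spp1, Lgals3 and Cd9 had no match in this window. An AP-1 motif (TGANTCA, both strands) was found in Cd68, Trem2 and Gpnmb, in the last of these after the start, against 7.14% of all promoters. The E-box CACGTG was found in 0 of 10 markers and in 7.81% of all promoters. The motifs share no letters at any position found. A match describes the letters only. The 120 bases before the transcript start are shown for 2 markers with the PU.1 letters and 2 without, 5′ to 3′ on the strand of the gene, with the PU.1 and AP-1 letters in capitals (TTCCTC is the PU.1 core on the opposite strand). They lie in GRCm39 at chr2:14234031-14234150 (Mrc1), chr17:48653309-48653428 (Trem2), chr6:49013306-49013425 (Gpnmb) and chr14:47611226-47611345 (Lgals3), all on the plus strand.
Mrc1: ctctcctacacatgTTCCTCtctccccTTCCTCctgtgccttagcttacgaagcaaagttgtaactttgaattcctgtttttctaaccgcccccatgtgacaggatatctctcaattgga
Trem2: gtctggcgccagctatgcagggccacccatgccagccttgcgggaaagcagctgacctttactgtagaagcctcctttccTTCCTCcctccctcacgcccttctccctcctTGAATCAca
Gpnmb: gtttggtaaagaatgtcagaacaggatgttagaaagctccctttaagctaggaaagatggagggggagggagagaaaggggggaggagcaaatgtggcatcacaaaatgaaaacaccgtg
Lgals3: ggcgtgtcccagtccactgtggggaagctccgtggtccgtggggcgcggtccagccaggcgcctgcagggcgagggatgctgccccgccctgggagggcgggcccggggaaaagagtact

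Of the 10 markers, 6 were at least 2-fold higher in the Ucp1-KO library and 0 were lower by that much. Among all 15212 genes examined, the shares past 2-fold were 7.42% on the higher and 9.55% on the lower side. Of all genes past 2-fold, 43.7% were therefore on the higher side, and 24.0% were when the libraries were scaled to equal totals, which shifts the median log2 ratio of the genes examined by -0.31 and leaves 5 of the 10 markers at least 2-fold higher (Cd68 is then at a log2 ratio of 0.78). Of the lipid-associated markers 4 of 6 were at least 2-fold higher, namely Spp1, Gpnmb, Lgals3 and Trem2, and of the general ones 2 of 4, namely Fcgr1 and Cd68. Trem2, at 9.01 normalised counts in the WT library, passed the minimum mean of 10 only through its higher Ucp1-KO value, so that its place among the 4 was favoured by the filter and its values are a description. Beyond counting error, meaning that the 95% interval lay wholly on one side of 0, 8 markers were higher, 1 (Cd9) was lower and 1 (Adgre1) was neither. By that rule 31.5% of all genes were higher and 30.5% lower, so at this depth most well-counted genes differed and the size of a difference says more than the count. The log2 ratio below is that of Ucp1-KO over WT on normalised counts.

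In a bulk library, more macrophages and more RNA per macrophage cannot be told apart. The general markers are therefore described first. Adgre1 had 285 counts in the WT and 200 in the Ucp1-KO library, or 257 and 222 normalised counts. Its log2 ratio was -0.21 (95% counting interval -0.59 to 0.17), so a difference was not detectable at this depth. Mrc1, the most abundant of the general markers in counts, had 1008 and 972 counts, or 909 and 1078 normalised counts. Its log2 ratio was 0.25 (0.06 to 0.43), and it was -0.060 with equal totals, so its direction rests on the scaling. That of Adgre1 was -0.52 (-0.90 to -0.14) with equal totals. Neither transcript came near a 2-fold difference.

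Cd68 and Fcgr1 did not follow these. Cd68 had 233 counts in the WT and 403 in the Ucp1-KO library, or 210 and 447 normalised counts, a 2.13-fold higher level (1.69 to 2.70). Fcgr1 was weakly expressed, with 28 and 78 counts, or 25.2 and 86.5 normalised counts, a 3.43-fold higher level (1.82 to 6.84). The general markers thus spanned log2 ratios from -0.21 to 1.76, with a median of 0.67, and the lysosomal and the Fc receptor transcript stood apart from the other pair.

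**Figure D1:**
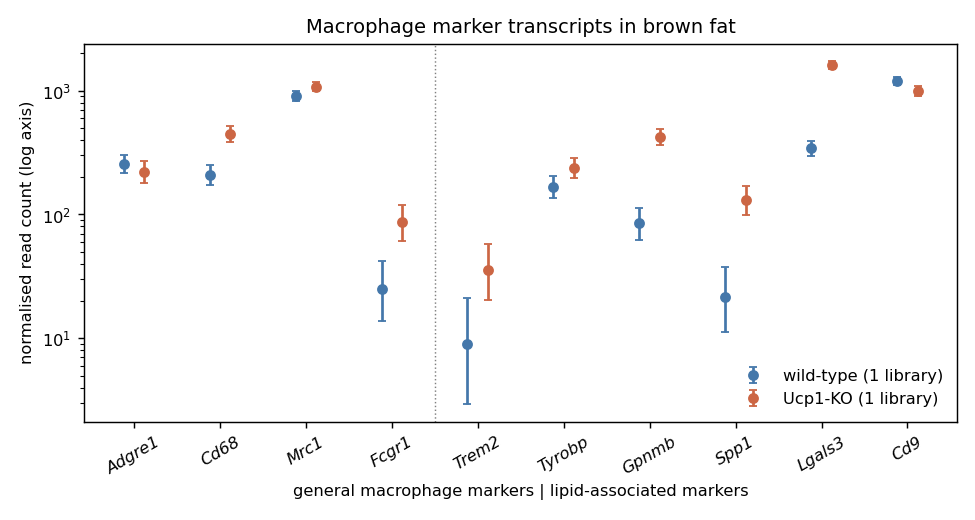
Normalised read count (log axis) of each marker in the wild-type and the Ucp1-KO library, with bars for the 95% Poisson interval on read pairs (counting error only, 1 library per genotype). The libraries lie close together for Adgre1, Mrc1, Tyrobp and Cd9 and furthest apart for Spp1, Gpnmb and Lgals3, for example 84.7 against 424 for Gpnmb.

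Among the lipid-associated markers, the receptor and its adaptor are described first, and the low counts of the receptor limit what can be said of it. Trem2 had 10 counts in the WT and 32 in the Ucp1-KO library, or 9.01 and 35.5 normalised counts. The log2 ratio of 1.92 had an interval of 0.46 to 3.78, the widest of all 10 markers. Tyrobp had 186 and 215 counts, or 168 and 239 normalised counts, and a log2 ratio of 0.51 (0.09 to 0.92). With equal totals that of Tyrobp was 0.20, within counting error, and that of Trem2 was 1.62. The log2 ratio of the receptor was thus above that of the adaptor, but their intervals overlap.

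Gpnmb, Spp1 and Lgals3 had the highest estimates of the log2 ratio in the set. Gpnmb had 94 counts in the WT and 382 in the Ucp1-KO library, or 84.7 and 424 normalised counts, 5.0-fold higher (3.62 to 7.04). Spp1 had 24 and 118 counts, or 21.6 and 131 normalised counts, 6.05-fold higher (3.22 to 12.4). Lgals3 was the most precisely measured of the 3, with 380 and 1449 counts, or 343 and 1608 normalised counts, 4.69-fold higher (4.0 to 5.54). The 3 intervals overlap one another and those of Trem2 and Fcgr1, so no order among these 5 genes can be read. Of all genes examined, 1.19% had a higher log2 ratio than Spp1, 1.5% than Gpnmb and 1.63% than Lgals3.

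Cd9 ran against the rest. It had 1322 counts in the WT and 895 in the Ucp1-KO library, or 1192 and 993 normalised counts. Its log2 ratio was -0.26 (-0.44 to -0.09), below 0 beyond counting error, and 68.4% of all genes examined had a higher one. The tetraspanin transcript thus lay nearest to Adgre1 among the markers. The lipid-associated markers spanned log2 ratios from -0.26 to 2.57 with a median of 2.07, while all genes examined had a median of -0.0016.

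**Figure D2:**
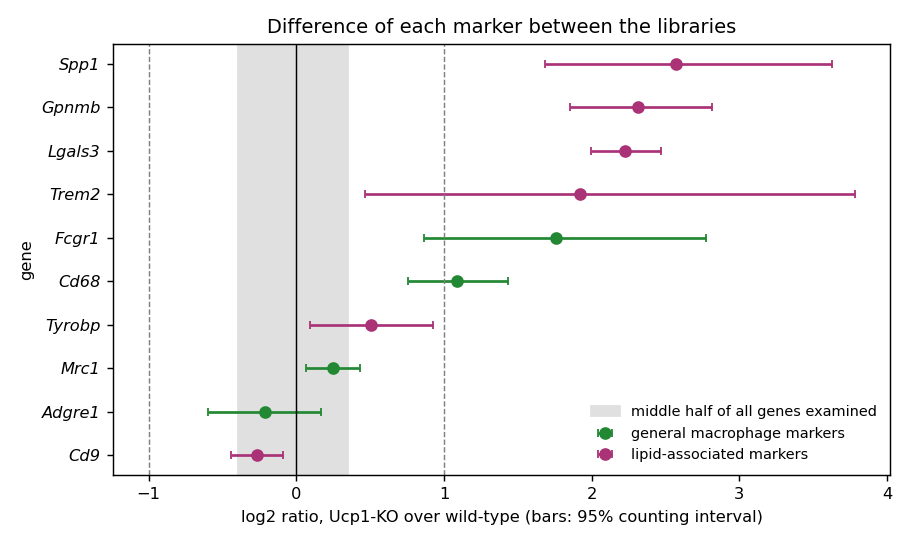
Log2 ratio of Ucp1-KO over wild-type for each marker in rising order, with 95% counting intervals, general markers in green and lipid-associated ones in purple. The grey band is the interquartile range of all genes examined (-0.39 to 0.35), dashed lines mark a 2-fold difference, and Spp1, Gpnmb and Lgals3 lie wholly beyond the upper line.

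The medians of both groups differed by 1.41 on the log2 scale, the lipid-associated markers being higher. The lipid-associated median lies midway between Lgals3 and Trem2, and Trem2 has few counts. Without Trem2, a choice made after seeing the data, the difference was 1.56. Scaling the libraries otherwise moves all markers together, so the difference was 1.41 also with TMM factors and with equal totals. It was 1.72 with Tyrobp counted as a general marker and 1.25 without Cd9, Lgals3 and Spp1, which other cells also use. As summed counts the groups lay closer. The general markers summed to 1554 counts in the WT and 1653 in the Ucp1-KO library (log2 ratio 0.39, 0.25 to 0.53). The lipid-associated markers summed to 2016 and 3091 (0.92, 0.80 to 1.03). The difference of these log2 ratios was 0.53, since Cd9 carried 37.0% of the counts of all 10 markers in the WT library and 18.9% in the Ucp1-KO library.

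Within a library, the share of counts in each group does not depend on any scaling. Lipid-associated markers made up 56.5% of the counts of the 10 markers in the WT library (exact binomial 54.1% to 58.8%), compared with 65.2% in Ucp1-KO (63.2% to 67.1%). Without Cd9, a choice made after its value was seen, the shares were 30.9% (28.2% to 33.7%) and 57.1% (54.8% to 59.3%), or 57.0% and 72.5% after division by transcript length. Divided in the same way, the shares with all markers were 77.9% and 79.2%, close to each other. With Cd9, Lgals3 and Spp1 left out, Trem2, Tyrobp and Gpnmb made up 15.7% of the remaining counts in WT (13.4% to 18.2%) and 27.6% in Ucp1-KO (25% to 30.3%). Gpnmb, which pigment and bone cells also use, had 94 of these counts in WT and 382 in Ucp1-KO. Divided by transcript length the shares were 41.8% and 44.5%, so most of their difference depends on how the genes are weighted.

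Set against F4/80 in the same library, the log2 ratio of each other marker moves up by about the size of that of Adgre1 (-0.21). This shift follows from the Adgre1 counts alone and leaves the differences between the other markers as they were. There were 0.330 Gpnmb counts per Adgre1 count in the WT library and 1.91 in the Ucp1-KO library, a change of 5.79-fold (log2 2.53, 1.91 to 3.15). Spp1 went from 0.0842 to 0.590 counts per Adgre1 count (log2 2.81, 1.79 to 3.90) and Lgals3 from 1.33 to 7.25 (2.44, 1.98 to 2.89). Trem2 went from 0.0351 to 0.160 (2.19, 0.60 to 4.03). Relative to Adgre1 the general markers Fcgr1 (1.99, 0.98 to 3.05), Cd68 (1.30, 0.79 to 1.82) and Mrc1 (0.46, 0.03 to 0.88) were also higher, as was Tyrobp (0.72, 0.15 to 1.29), while for Cd9 no change was detectable (-0.05, -0.48 to 0.37). All of these ratios share the Adgre1 counts, so they are not independent of one another.

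Levels of different genes were compared per kilobase of the canonical transcript. In the WT library Cd9 was highest at 938 normalised counts per kilobase, followed by Tyrobp (276), Lgals3 (249), Cd68 (175), Mrc1 (166), Adgre1 (76.5), Gpnmb (22.2), Spp1 (9.71), Fcgr1 (9.55) and Trem2 (8.28). The counting intervals overlapped between the neighbours Tyrobp and Lgals3, between Cd68 and Mrc1, and from Gpnmb to Spp1, Spp1 to Fcgr1 and Fcgr1 to Trem2. In the Ucp1-KO library Lgals3 was highest at 1167 normalised counts per kilobase, ahead of Cd9 (781). Tyrobp (393) and Cd68 (373), which did not differ beyond their intervals, came next. Mrc1 (197) and Gpnmb (111) followed, the latter now above Adgre1 (66.1), and Spp1 (58.7), Fcgr1 (32.8) and Trem2 (32.6) came last, the interval of each overlapping with that of the one before. Lgals3 was thus below Cd9 in the WT and above it in the Ucp1-KO library, and Gpnmb likewise with Adgre1. Transcript length stands in here for the counted length, which was not given in the sources used here.

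**Figure D3:**
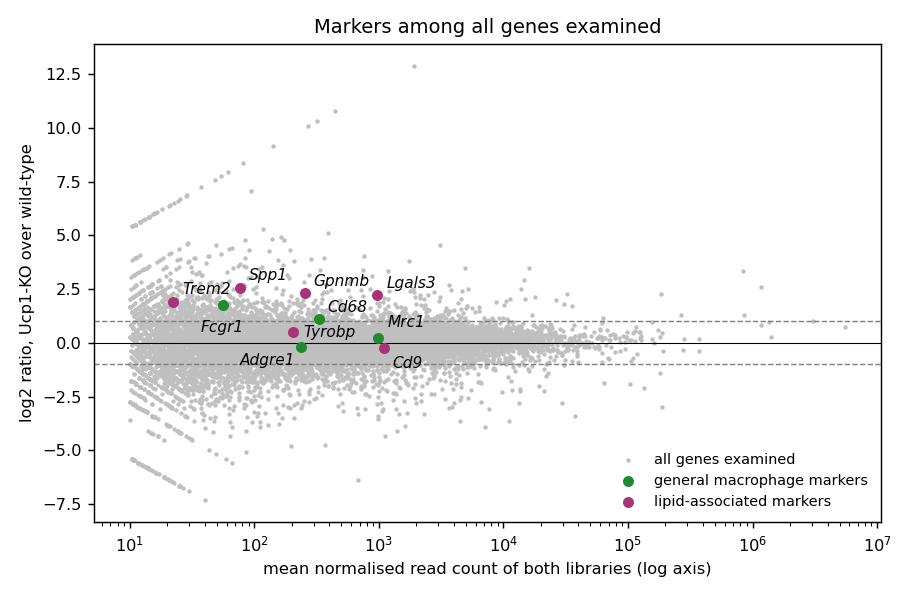
Log2 ratio of Ucp1-KO over wild-type against mean normalised read count (log axis) for all 15212 genes examined (grey), with general markers in green and lipid-associated ones in purple. Spp1, Gpnmb, Lgals3, Trem2, Fcgr1 and Cd68 lie above the upper dashed line, while Mrc1, Adgre1, Tyrobp and Cd9 lie between the dashed lines of a 2-fold difference.

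The markers were then set beside wider lists of genes, with the same log2 ratio. Of 23 other pan-macrophage genes, all examined, 12 were higher and 2 lower beyond counting error, beside 31.5% and 30.5% of all genes. The median log2 ratio was 0.57, or 0.27 with equal totals. Past 2-fold were 4 (17.4%) on the higher and 2 (8.70%) on the lower side, beside 7.42% and 9.55% of all genes. Itgam, the integrin CD11b, had 96 and 323 counts and a log2 ratio of 2.04 (1.58 to 2.55). Mpeg1, which encodes perforin-2, had 1.37 (1.11 to 1.63) and Ctss, the lysosomal protease cathepsin S, 1.33 (1.11 to 1.57). Cx3cr1, the fractalkine receptor, was lower, with 116 and 25 counts and -1.90 (-2.93 to -1.02).

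The listed genes of resident and perivascular macrophages leaned the other way. Other cells could add to these transcripts too, and their part was not tested (the endothelial markers below had a median of -0.87). Of 18 examined, 1 was higher and 8 were lower beyond counting error, beside 31.5% and 30.5% of all genes. The median log2 ratio was -0.27 (-0.57 with equal totals). In either direction 0 reached 2-fold, beside 7.42% of all genes on the higher and 9.55% on the lower side. Mgl2, a lectin, had 343 and 152 counts (-0.87, -1.28 to -0.48) and Gas6, a ligand of the receptors that clear dying cells, -0.67 (-0.80 to -0.54). Pf4, a chemokine, was the 1 that was higher, at 0.60 (0.25 to 0.95), and Cd209f had 0.63 (-0.04 to 1.33). Mrc1, which marks the same cells, had the small positive log2 ratio given above.

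Of 27 other lipid-associated macrophage genes examined, 9 (33.3%) were higher by 2-fold or more and 1 (3.70%), Fabp5, was lower by as much. The shares of all genes were 7.42% and 9.55%. The median log2 ratio of the list was 0.38 (0.07 with equal totals). Of the 9, Ccl3 (6 and 29 counts) passed the minimum mean only through its Ucp1-KO value. Beyond counting error 16 of the 27 were higher and 6 lower, beside 31.5% and 30.5% of all genes. Olr1, the scavenger receptor LOX-1 for oxidised lipoprotein, had 12 and 129 counts and a log2 ratio of 3.67 (2.53 to 5.22). Mmp12, macrophage elastase, had 20 and 182 counts (3.45, 2.54 to 4.59). Nceh1, which hydrolyses cholesterol esters, had 143 and 1224 counts (3.39, 3.04 to 3.77), and Clec7a, the beta-glucan receptor dectin-1, had 12 and 69 (2.77, 1.56 to 4.36). The list was thus uneven, with log2 ratios from -1.31 to 3.67. Its median lay below the 0.57 of the other pan-macrophage genes (0.27 with equal totals). The wider lists therefore did not repeat the order of the medians of the marker groups. The share past 2-fold on the higher side was larger in this list (33.3% against 17.4%). The 8 lipid-handling genes that adipocytes also use had a median of 0.32 (0.02 with equal totals). Beside the same shares of all genes, 7 were higher and 1 was lower beyond counting error. The 1 was Abca1, the cholesterol exporter (10795 and 2464 counts, -1.83, -1.92 to -1.74), while Plin2, a lipid droplet protein, had 0.76 (0.73 to 0.79), Lpl, lipoprotein lipase, 0.59 (0.58 to 0.60) and Abcg1, another sterol exporter, 0.50 (0.29 to 0.71).

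The partners of the markers were next. Of 18 genes examined in the signalling of TREM2, TYROBP and related receptors, 6 were higher and 3 lower beyond counting error, the former near the share of all genes (31.5%). Their median log2 ratio was 0.34, with 0.03 at equal totals and -0.02 at a minimum mean of 50. Btk, a kinase, had 26 and 64 counts (1.58, 0.63 to 2.65), Pik3ap1, an adaptor for PI3-kinase, 19 and 54 (1.78, 0.70 to 3.05), and Pik3cg, a PI3-kinase subunit, 102 and 34 (-1.27, -2.17 to -0.47). Sirpb1a had 0 and 30 counts, which is uncertain because near-identical Sirpb1 genes share reads. It is among the 6 that were higher, but it passed the minimum mean only through its Ucp1-KO value. The median was the same with Sirpb1a at the bound that a count of 0 sets. Of the other Fc gamma receptors, Fcgr4 (1.58, 0.47 to 2.87) and Fcgr3 (0.77, 0.47 to 1.07) were higher, while for Fcgr2b, the inhibitory receptor (0.18, -0.19 to 0.55), and for the shared signalling chain Fcer1g (-0.13, -0.52 to 0.26) no difference was detectable. Fcer1g was chosen after its value was seen.

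Within their own families Lgals3 stood out and Cd9 did not. Of 8 genes, 7 galectins and the galectin-3 binding protein Lgals3bp, Lgals3 was the 1 that reached 2-fold. The median of the 8 was 0.18, or -0.12 with equal totals. Lgals3bp had -0.52 (-0.79 to -0.26), Lgals4 0.49 (0.37 to 0.60) and Lgals2 -0.49 (-1.68 to 0.62). The 16 tetraspanin genes had a median of 0.09, or -0.21 with equal totals, with 2 past 2-fold on the higher side and 3 on the lower. These included Cd37 (1.51, 0.65 to 2.47) and Cd82 (1.20, 0.98 to 1.43), and on the lower side Tspan7 (-1.11, -1.20 to -1.02) and Tspan9 (-1.03, -1.17 to -0.90). Of the 7 osteopontin receptor genes (median 0.24, or -0.063 with equal totals), Cd44 (0.91, 0.64 to 1.19), Itga4 (0.49, 0.29 to 0.68) and Itgb3 (0.47, 0.03 to 0.92) were higher and Itga9 was lower (-1.46, -1.80 to -1.13).

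Genes of macrophage activation and growth were also measured. Of 15 activation genes 9 were examined, and 4 of these (44.4%) were at least 2-fold higher, beside 7.42% of all genes. The median was 0.92, with 0.43 at equal totals, 0.56 without a filter and 1.35 at a minimum mean of 50. Of the 9, Nos2, the inducible nitric oxide synthase, was the 1 that was lower beyond counting error (775 and 442 counts, -0.51, -0.76 to -0.27). The rest of the 15 were below the minimum mean of 10. Among them Tnf (18 and 2 counts, -2.62, -8.32 to -0.02), Arg1 (12 and 0) and Il1b (10 and 5) had fewer counts in Ucp1-KO. Cd80 (1 and 8) and Il10 (0 and 2) had more, and Ptgs2 had 4 in both. The 4 past 2-fold were the monocyte-attracting chemokine Ccl2 (13 and 301 counts, 4.77, 3.72 to 6.23), the related Ccl7 (14 and 139, 3.56, 2.49 to 4.98), Il1rn, the interleukin-1 receptor antagonist (30 and 353 counts, 3.83, 3.10 to 4.72), and Hmox1, heme oxygenase-1 (803 and 2879 counts, 2.14, 1.98 to 2.30). Csf1, the main growth factor of macrophages, had 827 and 1674 counts (1.32, 1.15 to 1.49). Il34, the other ligand of its receptor, had 358 and 236 (-0.30, -0.65 to 0.04), and Csf2 had 0 counts in both libraries, against a limit of 6 counts (0.113 CPM, counts scaled to a common library total) that a count of 0 allows.

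**Figure D4:**
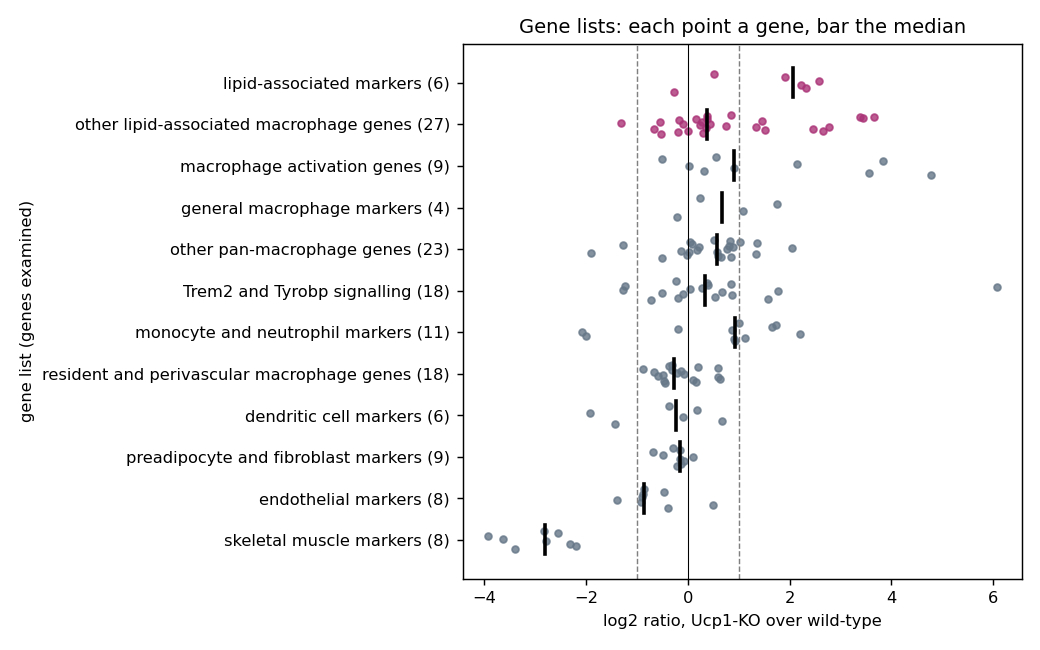
Log2 ratio of Ucp1-KO over wild-type for each gene examined (points) in 12 lists, with the median as a black bar and dashed lines at a 2-fold difference. The lipid-associated markers have the highest median (2.07). The other lipid-associated genes reach 3.67, but their median (0.38) is below that of the other pan-macrophage genes (0.57). The point beyond 6 is Sirpb1a with 0 WT counts. Resident macrophage genes lie around -0.27, and muscle markers lie lowest (-2.81).

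Markers of other cells that could add to these transcripts differed as follows, and their part in the results was not tested. Of 11 monocyte and neutrophil genes examined (median 0.94), 6 were higher and 2 lower beyond counting error, beside 31.5% and 30.5% of all genes. Mmp8 (7 and 28 counts, 2.21, 0.55 to 4.52) was higher, but it passed the minimum mean only through its Ucp1-KO value. Mmp9 (-2.08, -3.87 to -0.74) and the monocyte marker Ly6c2 (61 and 12 counts, -2.01, -3.60 to -0.76) were lower. The neutrophil marker Ly6g was at 0 in both libraries. The 16 listed genes summed to 754 counts in the WT and 1074 in the Ucp1-KO library. The 9 dendritic cell genes summed to 2071 and 1382 counts, and the 6 examined had a median of -0.24, or -0.54 with equal totals, with Flt3 at -1.92 (-3.71 to -0.54). The 7 mast cell genes summed to 1413 and 1283 counts, with a median of 0.23 over the 5 examined, or -0.07 with equal totals. The 9 T and B cell genes summed to 297 and 216 counts, with a median of 0.19 over the 8 examined, or -0.11 with equal totals.

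Gpnmb and Spp1 are also used by pigment and bone cells. Of 5 melanocyte markers 1 was examined, Pmel, with 55 and 31 counts (-0.52, -1.53 to 0.42). Below the minimum mean, Mlana had 0 and 7 counts and Dct 6 and 0. Tyr and Tyrp1 were at 0 in both libraries, and the list summed to 61 and 38 counts. Of 6 osteoclast and osteoblast markers 2 were examined, Ctsk with 326 and 296 counts (0.16, -0.17 to 0.49) and Ocstamp with 17 and 6 (-1.14, -3.74 to 0.83). Below the minimum mean, Bglap had 0 and 10 counts (lower bound of the log2 ratio 0.17) and Calcr 16 and 2. Ibsp and Sp7 were at 0 in both, and the list summed to 359 and 314 counts, most of them from Ctsk. For cells that use Cd9 and Lgals3, the 9 preadipocyte and fibroblast markers had a median of -0.16 with 8 lower beyond counting error (sums 97411 and 71172 counts). The 8 endothelial markers had a median of -0.87 with 7 lower (113209 and 56679). By that rule 30.5% of all genes were lower. The 7 adipocyte markers had a median of 0.25, or -0.056 with equal totals (204036 and 221058 counts), and the 5 Schwann cell markers -0.59 (8382 and 4620). None of these 4 lists had a gene that was higher by 2-fold or more, beside 7.42% of all genes, a share that amounts to few genes in lists this short. Lower by as much were 2 of 7 adipocyte (28.6%), 1 of 8 endothelial (12.5%) and 1 of 5 Schwann cell markers (20%). The preadipocyte and fibroblast list had 0, and the share of all genes was 9.55%.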

How the data were processed

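Brown adipose tissue of WT and Ucp1-KO mice was measured with 1 poly(A)-enriched library per genotype. The deposited tables, made by the authors with featureCounts, hold unnormalised integer counts for each gene. The submitters' processing notes name Trim Galore, HISAT2 and the build mm39, without versions. Annotation, strand setting and the treatment of reads matching several places are not given in the sources used here.

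To normalise, each count was divided by a DESeq2 size factor (median of ratios, version 1.42.0, R 4.3.3) of 1.11 for WT and 0.901 for Ucp1-KO. The log2 ratio is log2((Ucp1-KO + 0.5)/(WT + 0.5)). Among genes with 1 to 10 counts, 70.7% (WT) and 73.4% (Ucp1-KO) had an even count, so intervals were computed on read pairs, taken as counts divided by 2: Poisson for a level, conditional binomial (Clopper-Pearson) for a ratio, binomial for a share, and conditional odds ratio for a change relative to Adgre1. The limit for a count of 0 is 3 read pairs. There were no molecular identifiers, so PCR copies count as molecules and intervals cover counting error only. With 1 library per genotype no test was run.

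The 10 markers and the 22 wider lists were chosen with earlier results of these data known. Named are all 10 markers, Ucp1, and up to 4 genes per wider list with the largest log2 ratio in size. One such gene and some sequences are not reported here. Genes at 0 or below the minimum mean, Ccl3, Fabp5, Fcer1g and Nos2 were named after their values were seen. Promoters were read from GRCm39 with the GENCODE annotation. Alternatives were TMM factors (edgeR 4.0.16), total counts with and without mitochondrially encoded genes, a pseudocount of 5, other filters, counts in place of read pairs, and other groupings of the markers.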

Additional observations from a re-analysis of the deposited data

How the results depend on the processing

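No paired analysis was possible because there was only 1 library of each genotype, which also means that no library could be left out. The alternatives without Cd9 or without Trem2 were chosen after seeing the data. Scaling to equal totals moved the median of the genes examined by -0.31, left 5 of 10 markers at least 2-fold higher, and moved Lgals3 to 1.92 and Cd9 to -0.57, turned Mrc1 to -0.060, and took Adgre1 below 0 beyond counting error (-0.52, -0.90 to -0.14). It turned the medians of galectins (-0.12), osteopontin receptors (-0.063) and adipocyte markers (-0.056), and those of tetraspanins (-0.21), mast cell (-0.07) and T and B cell markers (-0.11). The difference of the medians was 0.53 as summed counts, where Cd9 weighs most, and 1.21 to 1.72 under the other alternatives. The share of lipid-associated counts in WT and Ucp1-KO was 51.3% and 60.6% with Tyrobp as a general marker, 77.9% and 79.2% per kilobase, and 30.9% and 57.1% without Cd9 (57.0% and 72.5% per kilobase). Genes at least 2-fold higher and lower numbered 1128 and 1453, of which 43.7% were higher. Without a filter there were 2187 and 2844, with a minimum mean of 50 617 and 811 (fewer genes by construction), and with equal totals 732 and 2320, of which 24.0% were higher. Of 50 values for single markers, 47 were the same within error, which overstates how firm they are. Counts in place of read pairs leave each value as it is. TMM factors and totals without mitochondrially encoded genes lie close to the main factors (WT 1.105 and 1.104 against 1.109). The exceptions, Lgals3, Cd9 and Mrc1, all came with equal totals. Counted as the same were Adgre1 and Tyrobp, although Tyrobp was then within counting error (-0.21 to 0.62). Depth limits Trem2, Fcgr1 and Spp1.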
